A study of Rattus norvegicus with 8 samples.

Results

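The genes examined here encode ubiquitin ligases and other proteins annotated to ubiquitination, in rat (Rattus norvegicus) nucleus pulposus cells, which come from the gelatinous centre of the intervertebral disc. They were chosen by annotation, as every row of the deposited expression table with the GO term protein ubiquitination or ubiquitin-protein transferase activity. Rows that also carried a term for cell division, mitosis, DNA repair, DNA replication, autophagy, lysosome, cilium or immune response were left out, as were Mdm2 and Birc2. The rule gave 37 of 4226 genes, all of them protein-coding. Of these, 26 carry the first term, 18 the second and 7 both.

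The study sequenced RNA from 8 libraries. All were made from cells in which SOD1, an enzyme that disposes of superoxide in the cytosol, was first depleted by knockdown and then given back by transfection, with lactate at 10 mM for 7 days. In 4 libraries the transfected form was wild-type SOD1 (SOD1-WT) and in 4 it was SOD1 with the K123R substitution (SOD1-K123R), which replaces a lysine by arginine. The comparison asks how expression differs between the forms when lactate is present. Which reagents served for knockdown and transfection is not given in the labels. In the table the columns of SOD1-WT are called Ctrl and those of SOD1-K123R are called L, a letter with no stated meaning. A difference in lactate between the groups and the substitution therefore cannot be told apart by these headings, and neither can any difference in handling, since library numbers run in a separate block for each group. Nothing in the labels says that replicates were separate cultures. The p-values then measure the spread between libraries alone, which may be technical. Sod1 itself was not analysed here.

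Ubiquitination is a relay of enzymes. An activating enzyme (E1) charges ubiquitin, a conjugating enzyme (E2) carries it, and a ligase (E3) chooses the substrate. HECT and RBR ligases take ubiquitin onto their own cysteine before passing it on, RING ligases bring the charged E2 to the substrate, and cullin complexes use exchangeable receptors with an F-box, BTB or SOCS-box motif. Chains of ubiquitin send proteins to the proteasome or change their activity, and deubiquitinating enzymes take them off. Rnf19a, also called dorfin, is known as a ligase that binds mutant forms of SOD1, and Nfe2l2 encodes NRF2, the oxidative stress transcription factor that a KEAP1 and CUL3 ligase keeps low.

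Values are TPM, transcript levels scaled for transcript length and library size, and were compared with limma on log2(TPM + 1) over the 2890 genes whose mean reached 1 TPM. A gene is said to rise or fall when its Benjamini-Hochberg adjusted p was under 0.05. The table held between 18.8% and 19.9% of the TPM total of a whole library in SOD1-WT and between 23.5% and 24.3% in SOD1-K123R, so it is part of a larger set of genes. Genes with a small difference were few in it (244 of 2890, or 8.44%, lay within 0.5 of 0 on the log2 scale), and 95.7% of all genes tested passed. Of 16 markers of nucleus pulposus cells, 7 were in the table. Cd24, Sox9 and Nog rose, Acan, Cdh2 and Bmp2 fell, and Col2a1, the cartilage collagen, had a mean of 0 TPM in SOD1-WT and 0.065 TPM in SOD1-K123R. In SOD1-WT, Sox9 (0.4 TPM), Nog (0.68 TPM) and Acan (1.545 TPM) had low means. The 7 summed to 156.9 to 184.1 TPM in SOD1-WT and 41.05 to 60.29 TPM in SOD1-K123R, with Bmp2 means of 147.8 and 11.77 TPM. Of 8 markers of macrophages and leukocytes, 2 were in the table (Cd68 and Lyz2). Their summed level was 5.44 to 8.04 TPM in SOD1-WT and 23.4 to 30.9 TPM in SOD1-K123R. Cd68 rose, with means of 6.89 and 26.0 TPM, and made up nearly all of the sum. Lyz2 had means of 0.025 and 0.87 TPM and was not tested. Of 5 markers of tendon and outer disc, 2 were in the table and fell: Scx from 29.1 to 10.5 TPM and Thbs4 from 16.0 to 9.79 TPM, with a sum of 34.6 to 55.2 TPM in SOD1-WT and 17.0 to 21.7 TPM in SOD1-K123R. The single endothelial marker in the table, Pecam1, had means of 0.175 and 0.385 TPM. The part of other cell types in the differences below was not tested. In such bulk libraries, fewer cells of a type and less RNA per cell cannot be told apart.

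Ubiquitination genes went both ways. Of the 37, 28 passed the expression filter, and 17 of these rose while 11 fell in SOD1-K123R, against 44.6% and 51.1% of all genes tested. As 95.7% of the genes in the table passed, the passing of all 28 is no result about them. At least 2-fold on the log2(TPM + 1) scale were 9 rises and 5 falls (26.0% and 35.8% of all genes tested). The groups did not overlap for any of the 28 (91.4% of all genes tested). The median log2 fold change was 0.83 over the 28 and -0.49 over all genes tested, and the median absolute change was 0.99 and 1.14. The median of all genes depends on the filter and the scaling: it was 0.27 at a mean of at least 5 TPM, where that of ubiquitination genes was 0.96, and -0.14 after median-of-ratios scaling, where that of ubiquitination genes was 1.15. The changes were of moderate size: 229 genes of the table rose more than Rnf19a, the ubiquitination gene with the largest rise, and 90 fell more than Lnx1, the one with the largest fall. Socs1, Klhl15 and Arrdc4 passed the filter only through their level in SOD1-K123R. The 9 genes under the filter are given by their levels. With no filter on low values, 4 of them passed as higher and 4 as lower, and Rnf144b did not pass (89.4% of all 4226 genes passed that way).

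**Figure D1:**
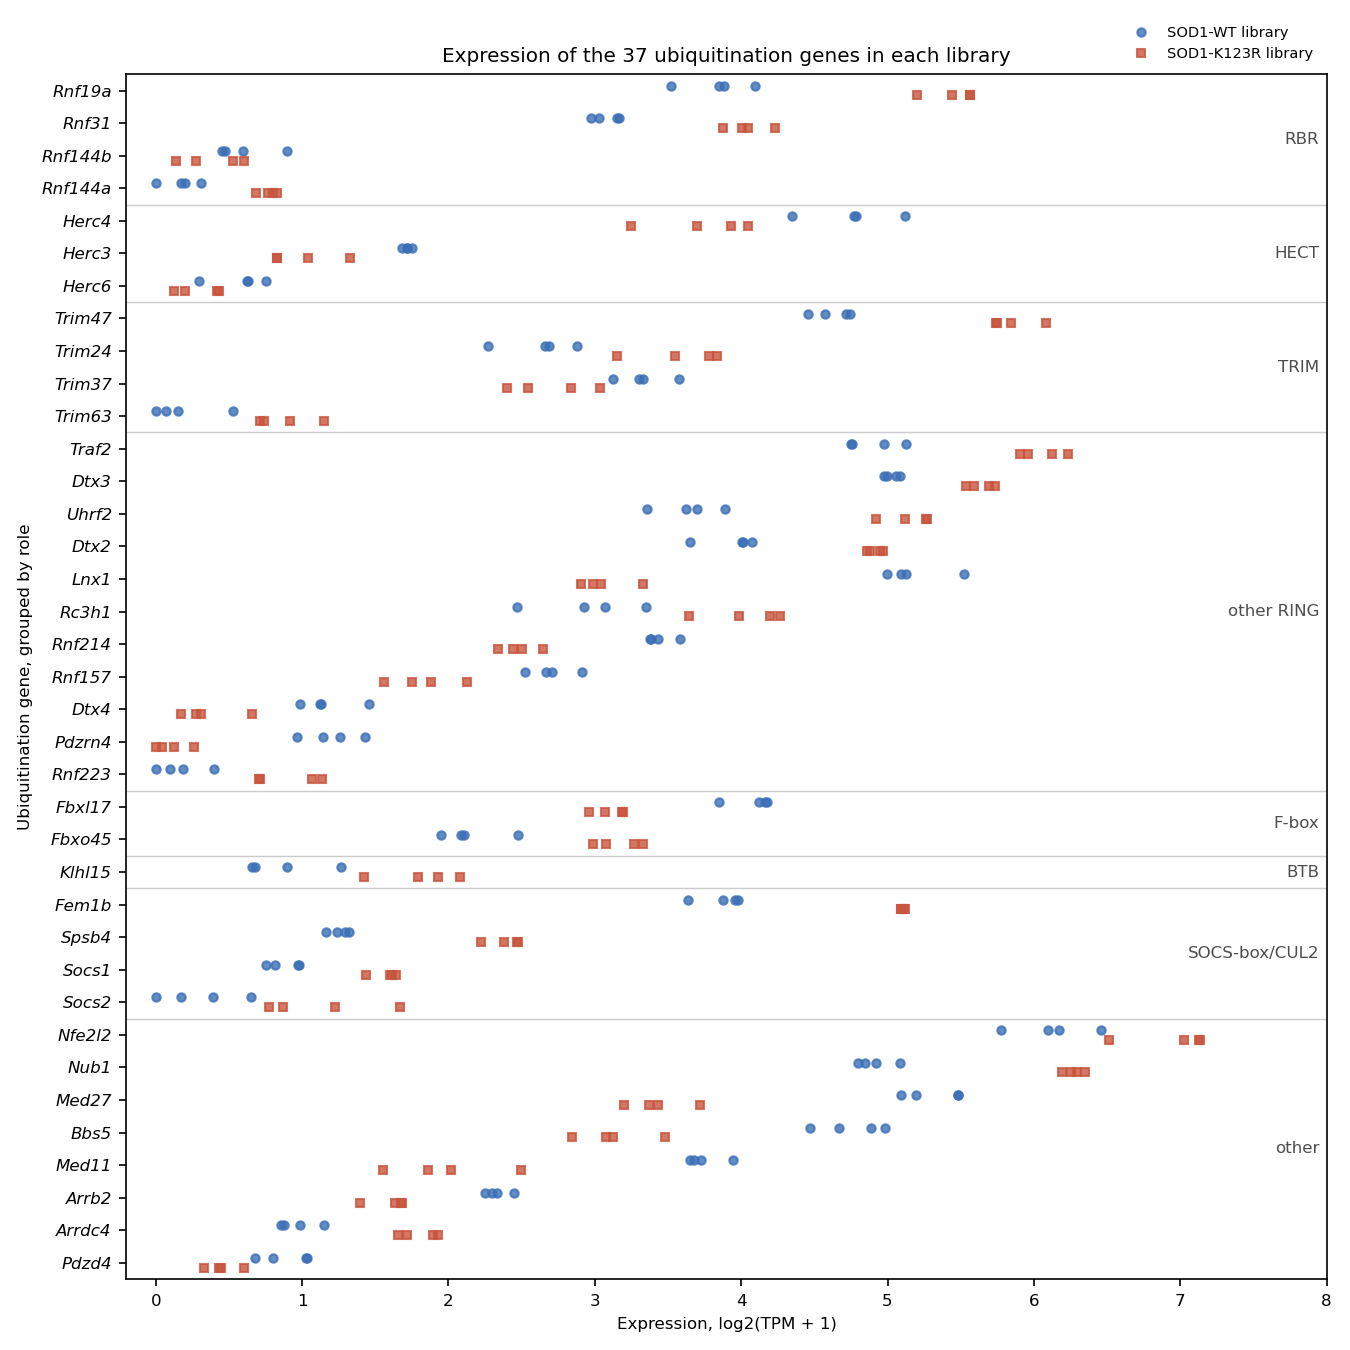
Expression of each of the 37 ubiquitination genes on a log2(TPM + 1) axis, grouped by role, with circles for the 4 SOD1-WT libraries and squares for the 4 SOD1-K123R libraries. The groups overlap only for Rnf144b and Herc6, both under 1 TPM in every library. Of all genes tested, 91.4% had groups apart.

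The upstream sequences of a few members are shown so that genes that moved in opposite directions can be compared. Promoter windows from RefSeq (GRCr8 assembly) matched 31 of the 37 genes. Printed are the 250 bases before the start of Med11, which fell, and of Fem1b and Trim47, which rose. They have the largest changes among the 9 tested members whose window begins at the outermost annotated start of the gene. Capitals mark matches, on either strand, to any of 5 motifs: the E-box CACGTG, the AP-1 motif TGANTCA, the antioxidant response element core TGACNNNGC, the GC box GGGCGG and the TATA box TATAAA. The windows lie at chr10:55662706-55662955 (plus strand), chr8:72173997-72174246 (minus strand) and chr10:101840937-101841186 (minus strand), and read 5′ to 3′ on the strand of the gene.
Med11: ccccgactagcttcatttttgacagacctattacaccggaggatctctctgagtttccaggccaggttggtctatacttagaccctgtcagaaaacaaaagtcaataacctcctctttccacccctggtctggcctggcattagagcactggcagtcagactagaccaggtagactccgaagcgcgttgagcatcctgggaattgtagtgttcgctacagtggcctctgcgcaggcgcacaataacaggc
Fem1b: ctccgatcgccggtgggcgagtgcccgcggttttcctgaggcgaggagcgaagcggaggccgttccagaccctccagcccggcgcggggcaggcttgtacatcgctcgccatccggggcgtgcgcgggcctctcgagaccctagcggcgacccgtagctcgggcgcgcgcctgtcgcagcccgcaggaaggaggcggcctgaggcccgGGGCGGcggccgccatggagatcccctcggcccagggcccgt
Trim47: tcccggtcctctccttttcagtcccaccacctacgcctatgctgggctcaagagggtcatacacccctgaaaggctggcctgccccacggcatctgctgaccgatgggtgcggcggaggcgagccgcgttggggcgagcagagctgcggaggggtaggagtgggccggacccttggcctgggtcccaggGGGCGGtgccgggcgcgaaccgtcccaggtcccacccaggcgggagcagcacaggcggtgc

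The Med11 window held none of the 5 motifs. Those of Fem1b and Trim47 each held 1 GC box, beginning 42 and 61 bases before the start. Over all windows, GC boxes were in 13 of 15 genes that rose (86.7%) and in 4 of 8 that fell (50%). The same share was 63.1% of 934 rising and 55.1% of 1097 falling genes of the table, and 32.4% of all 27457 RefSeq windows. Base composition differed as well, as the median GC content was 69.2% in ubiquitination genes that rose, 63.2% in those that fell and 60.4% in all genes tested. The antioxidant response element core was found in Arrdc4 and Bbs5 only (2 of 31, against 12.3% of genes tested and 10.2% of all windows). The E-box was in Arrdc4 and Lnx1 (9.17% of genes tested and 5.79% of all windows). The AP-1 motif was in Lnx1, Dtx4 and Rnf223 (4.8% and 6.36%), and the TATA box in Dtx2, Rnf223 and Trim63 (7.65% and 13.1%). Matches of the AP-1 motif and the antioxidant response element core can overlap, since both can begin with TGAC. A match describes these letters and does not show binding.

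Both tested RBR ligases rose, and the largest rise of the set was among them (44.6% of all genes tested rose). Rnf19a read 10.5, 13.4, 16.1 and 13.8 TPM in SOD1-WT replicates 1 to 4 and 46.4, 46.3, 42.4 and 35.7 TPM in SOD1-K123R replicates 1 to 4. Every SOD1-K123R library lay above every SOD1-WT library (91.4% of all genes tested had groups apart). The log2 fold change of Rnf19a was 1.61 (SE 0.13, adjusted p = 1.37e-07). Rnf31, or HOIP, the catalytic subunit of the complex that makes linear ubiquitin chains, read between 6.87 and 7.96 TPM in SOD1-WT and between 13.7 and 17.8 TPM in SOD1-K123R (log2 fold change 0.96, SE 0.11, adjusted p = 2.66e-06). The relatives Rnf144a and Rnf144b lay under the filter. Rnf144a was listed at 0 TPM in SOD1-WT replicate 1. Replicates 2 to 4 of SOD1-WT read 0.13 to 0.24 TPM, and SOD1-K123R libraries 0.61 to 0.78 TPM. Rnf144b overlapped between the groups, with 0.37 to 0.86 TPM and 0.10 to 0.52 TPM.

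Both tested HECT ligases of the set, which carry an RCC1-like domain beside the catalytic domain, fell (51.1% of all genes tested fell). Among HECT ligases left out of the set for another term, Smurf1 rose (0.81, SE 0.11) and Herc1 fell (-1.43, SE 0.16). Herc4 read 19.4, 26.3, 33.7 and 26.6 TPM in SOD1-WT and 14.2, 15.5, 8.50 and 12.0 TPM in SOD1-K123R. The libraries of each group were widely spread, but the groups stayed apart, as for 91.4% of all genes tested. The log2 fold change of Herc4 was -1.03 (SE 0.19, adjusted p = 0.000164). Herc3 was nearly constant in SOD1-WT, at 2.21 to 2.36 TPM, and read 0.78 to 1.51 TPM in SOD1-K123R (log2 fold change -0.71, SE 0.13). Herc6, known in the mouse as a ligase for the ubiquitin-like protein ISG15, lay under the filter at 0.23 to 0.69 TPM in SOD1-WT and 0.09 to 0.35 TPM in SOD1-K123R, and its groups overlapped.

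Of 3 tested TRIM ligases, 2 rose and 1 fell (44.6% and 51.1% of all genes tested). Trim47 read 25.3, 22.8, 20.9 and 25.8 TPM in SOD1-WT and 52.7, 52.6, 56.5 and 66.7 TPM in SOD1-K123R. It rose by 1.23 on the log2 scale (SE 0.10, adjusted p = 1.98e-07). Trim24, a bromodomain protein that acts on nuclear receptors and p53, rose by 0.96 on the log2 scale. Its mean ± SD was 5.23 ± 1.05 TPM in SOD1-WT and 11.2 ± 2.44 TPM in SOD1-K123R (n = 4 libraries each, as wherever ± is given). Trim37, a ligase of peroxisomes and centrioles, fell. It read 7.73, 8.85, 10.9 and 9.06 TPM in SOD1-WT and 7.18, 6.16, 4.83 and 4.28 TPM in SOD1-K123R, so that the highest SOD1-K123R library lay close to the lowest SOD1-WT library (log2 fold change -0.63, SE 0.15, adjusted p = 0.00169). With median-of-ratios scaling Trim37 no longer passed (-0.21 on the log2 scale, adjusted p = 0.126 in limma). Trim63, the muscle ligase MuRF1, lay under the filter at 0 to 0.44 TPM in SOD1-WT and 0.64 to 1.22 TPM in SOD1-K123R.

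Among other RING ligases 5 rose and 3 fell (44.6% and 51.1% of all genes tested). Uhrf2, a reader of modified cytosines in DNA, read 9.24, 11.3, 13.9 and 12.0 TPM in SOD1-WT and 37.5, 37.3, 29.3 and 33.8 TPM in SOD1-K123R (log2 fold change 1.50, SE 0.13, adjusted p = 1.91e-07). Traf2, an adaptor ligase of tumour necrosis factor receptors, read 34.0, 25.9, 26.1 and 30.5 TPM in SOD1-WT and 61.2, 58.9, 68.8 and 74.2 TPM in SOD1-K123R (1.15, SE 0.11, adjusted p = 5.82e-07). For both genes the lowest SOD1-K123R library was far above the highest SOD1-WT library (91.4% of all genes tested had groups apart). Rc3h1, or roquin-1, which binds stem-loops in mRNA and promotes their decay, rose from 6.93 ± 1.93 to 15.5 ± 3.02 TPM.

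Lnx1, which ubiquitinates the Notch antagonist Numb, went furthest down of all 28. It read 34.0, 33.1, 31.0 and 44.9 TPM in SOD1-WT and 7.24, 6.93, 6.48 and 9.03 TPM in SOD1-K123R (log2 fold change -2.12, SE 0.13, adjusted p = 1.76e-08). Replicate 4 was the highest library in both groups. Other PDZ domain genes of the set were low in SOD1-K123R but lay under the filter: Pdzrn4 read 0.95 to 1.69 TPM in SOD1-WT and 0 to 0.20 TPM in SOD1-K123R, and Pdzd4 read 0.60 to 1.05 TPM and 0.26 to 0.52 TPM. Rnf214 fell from 9.90 ± 0.757 to 4.60 ± 0.503 TPM and Rnf157, a ligase studied in neurons, from 5.54 ± 0.738 to 2.59 ± 0.595 TPM.

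Deltex ligases, which act in Notch signalling and are the 3 ubiquitination genes that KEGG places in that pathway, had tested members that rose and a low member that was higher in SOD1-WT. Dtx2 read 15.2, 15.1, 11.5 and 15.8 TPM in SOD1-WT and 30.4, 28.5, 28.1 and 29.9 TPM in SOD1-K123R, a log2 fold change of 0.98 (SE 0.11). Dtx3 was the more abundant at 31.7 ± 1.17 TPM in SOD1-WT and 48.9 ± 3.18 TPM in SOD1-K123R, and its log2 fold change of 0.61 (SE 0.08) was the smallest of the 28 in size. Dtx4, under the filter, read 0.98 to 1.74 TPM in SOD1-WT and 0.13 to 0.58 TPM in SOD1-K123R. Dtx3l, left out of the set for another term, rose (1.53, SE 0.12). Rnf223 was at 0 to 0.32 TPM and 0.63 to 1.20 TPM.

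**Figure D2:**
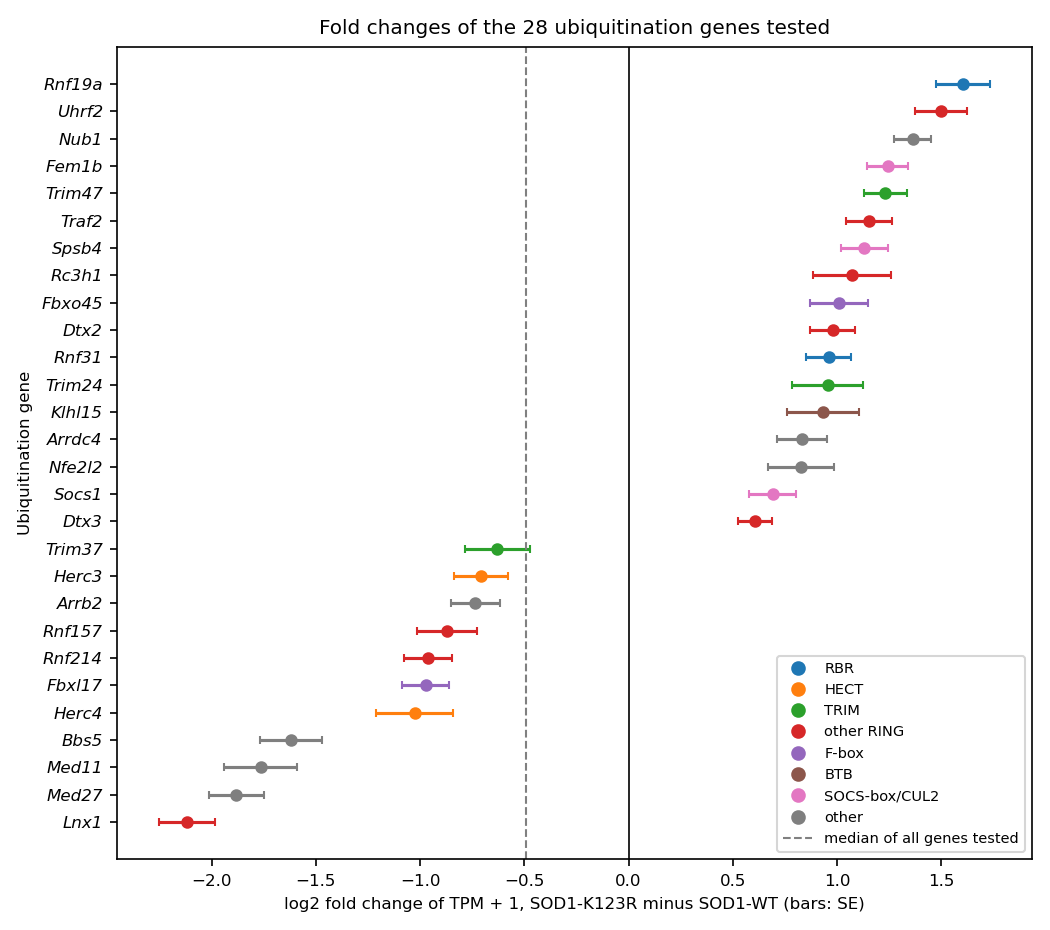
Fold change of each of the 28 tested ubiquitination genes, as log2(TPM + 1) in SOD1-K123R minus SOD1-WT with SE bars, coloured by role. Values run from -2.12 for Lnx1 to 1.61 for Rnf19a, with none within 0.5 of 0 (8.44% of all genes tested lay there). The dashed line marks the median of all genes tested (-0.49).

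Of 6 tested substrate receptors of cullin ligases 5 rose (44.6% of all genes tested rose). Among the 5 were Socs1 and Klhl15, which passed the filter only through SOD1-K123R. At a mean of at least 5 TPM, 3 receptors were tested and 2 of them rose (50.0% of all genes tested at that level rose). Among receptors left out of the set for another term, Vhl (1.61), Fbxl12 (1.44), Kctd13 (0.79) and Klhl21 (0.77) rose and Ccnf (-0.58) fell. Fem1b, a CUL2 receptor that acts in the response to reductive stress, read 11.4, 13.7, 14.5 and 14.8 TPM in SOD1-WT and 33.1, 33.7, 33.7 and 33.1 TPM in SOD1-K123R. Its SOD1-K123R libraries differed by less than those of any other tested member, with a coefficient of variation of 1.04%, and it rose by 1.24 (SE 0.10, adjusted p = 1.05e-07). The SOCS-box genes were at low levels. Spsb4 rose from 1.39 ± 0.114 to 4.24 ± 0.418 TPM and Socs1, a brake on JAK kinases, from 0.845 ± 0.142 to 1.98 ± 0.184 TPM. Socs2, a brake on growth hormone signalling, lay under the filter at 0 to 0.57 TPM in SOD1-WT and 0.71 to 2.18 TPM in SOD1-K123R. Klhl15, a BTB receptor of CUL3, read 0.60, 0.58, 0.86 and 1.40 TPM in SOD1-WT and 3.22, 2.81, 2.47 and 1.68 TPM in SOD1-K123R (log2 fold change 0.93, SE 0.17).

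The 2 tested F-box receptors of the set went in opposite directions. Fbxo45, which works with the ligase MYCBP2 in neurons, rose from 3.50 ± 0.740 to 8.02 ± 1.00 TPM (log2 fold change 1.01, SE 0.14). Fbxl17, which removes wrongly paired BTB proteins, fell from 16.0 ± 1.71 to 7.62 ± 0.640 TPM (log2 fold change -0.97, SE 0.11). The groups did not overlap for either gene, as for 91.4% of all genes tested.

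The annotation also brings in proteins that are not ligases by themselves. Nfe2l2 was the most abundant of the 37 and read 53.8, 71.2, 87.0 and 67.4 TPM in SOD1-WT and 139.8, 139.1, 129.2 and 90.5 TPM in SOD1-K123R. SOD1-K123R replicate 4 was the low library and lay just above the highest SOD1-WT library (log2 fold change 0.83, SE 0.16, adjusted p = 0.000271). Nub1, which delivers NEDD8 and related ubiquitin-like proteins to the proteasome, was second by the mean over all libraries and rank 5 by SOD1-WT alone, and read 29.2, 27.7, 26.8 and 32.9 TPM in SOD1-WT and 77.6, 75.2, 72.3 and 80.6 TPM in SOD1-K123R. It rose by 1.36 (SE 0.09, adjusted p = 2.09e-08), with little spread in either group.

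Med27 and Med11 are the only subunits of Mediator, the complex that links transcription factors to RNA polymerase II, in the set. Both carry the annotation and fell (51.1% of all genes tested fell). Med27 read 43.7, 35.6, 33.2 and 43.7 TPM in SOD1-WT and 9.34, 12.2, 9.81 and 8.19 TPM in SOD1-K123R (log2 fold change -1.88, SE 0.13, adjusted p = 3.98e-08). Med11 read 11.6, 12.2, 11.8 and 14.4 TPM in SOD1-WT and 1.93, 4.65, 3.05 and 2.63 TPM in SOD1-K123R (-1.77, SE 0.18, adjusted p = 8.59e-07). Bbs5, part of the BBSome that carries membrane proteins, fell from 26.2 ± 4.24 to 7.87 ± 1.66 TPM (log2 fold change -1.62, SE 0.15). With Lnx1, these were the 4 largest falls of the set. Of the arrestin-type adaptors, Arrb2 (beta-arrestin 2) fell from 4.04 ± 0.295 to 2.04 ± 0.275 TPM and Arrdc4 rose from 0.963 ± 0.187 to 2.49 ± 0.322 TPM.

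**Figure D3:**
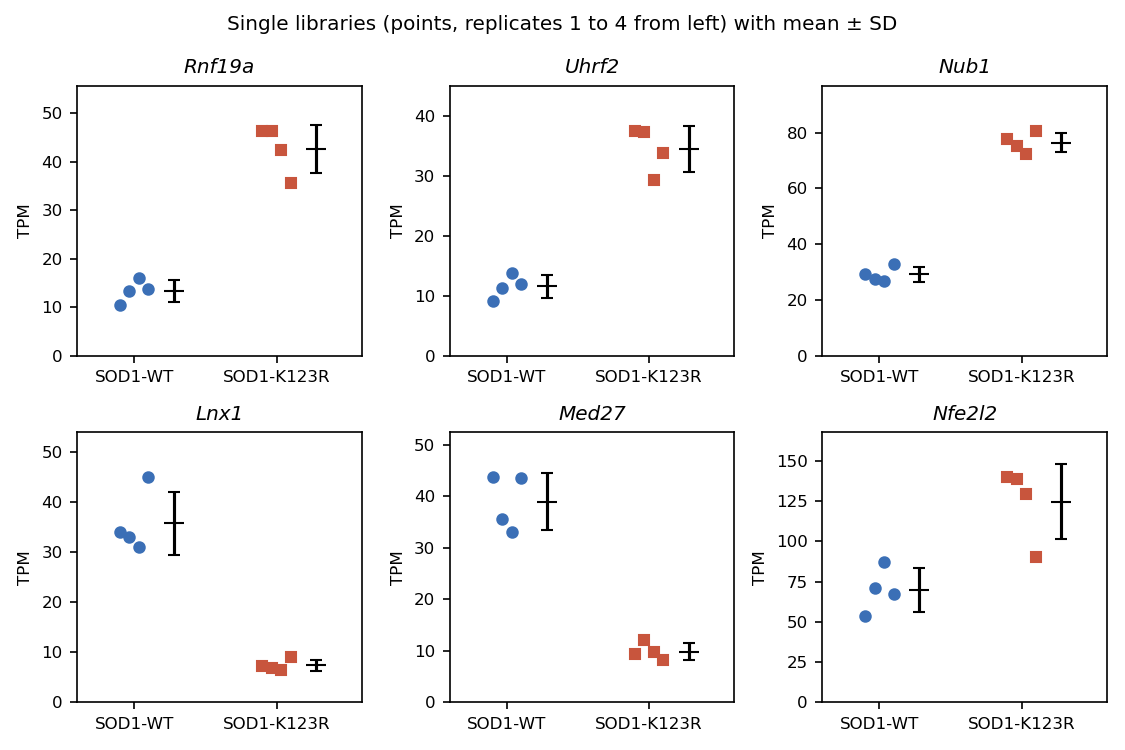
TPM in each library for Rnf19a, Uhrf2, Nub1, Lnx1, Med27 and Nfe2l2, each on its own axis from 0, with black bars for the mean ± SD of the 4 libraries. The groups are apart in each panel, as they are for 91.4% of all genes tested. For Nfe2l2 the lowest SOD1-K123R library (90.5 TPM) lies close to the highest SOD1-WT library (87.0 TPM).

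Added together, the 37 genes had 418 to 488 TPM in SOD1-WT libraries (456 ± 31.2) and 614 to 670 TPM in SOD1-K123R libraries (643 ± 30.2). As a share of the TPM in the table this was 0.237% ± 0.0159 and 0.268% ± 0.0150. The sum is carried by few genes. By the mean over all 8 libraries, a ranking that favours genes that rose, the 5 most abundant were Nfe2l2, Nub1, Traf2, Trim47 and Dtx3, which made up 40.3% of it in SOD1-WT and 58.0% in SOD1-K123R. By SOD1-WT libraries alone they were Nfe2l2, Med27, Lnx1, Dtx3 and Nub1, of which 3 rose and 2 fell.

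The median coefficient of variation over the tested members was 13.7% in SOD1-WT and 12.7% in SOD1-K123R, against 14.0% and 14.6% over all genes tested. The low values were unevenly spread over the libraries. SOD1-WT replicate 1 held the lowest value of its group for 16 of 28 members (57.1%, and 41.7% of all genes tested), among them Rc3h1, Nfe2l2, Trim24, Herc4 and Rnf19a. SOD1-K123R replicate 3 held the lowest value for 12 (42.9%, and 40.6% of all genes) and replicate 4 for 10 (35.7%, and 29.2%). Leaving out any library kept the call and the direction of all 28.

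**Figure D4:**
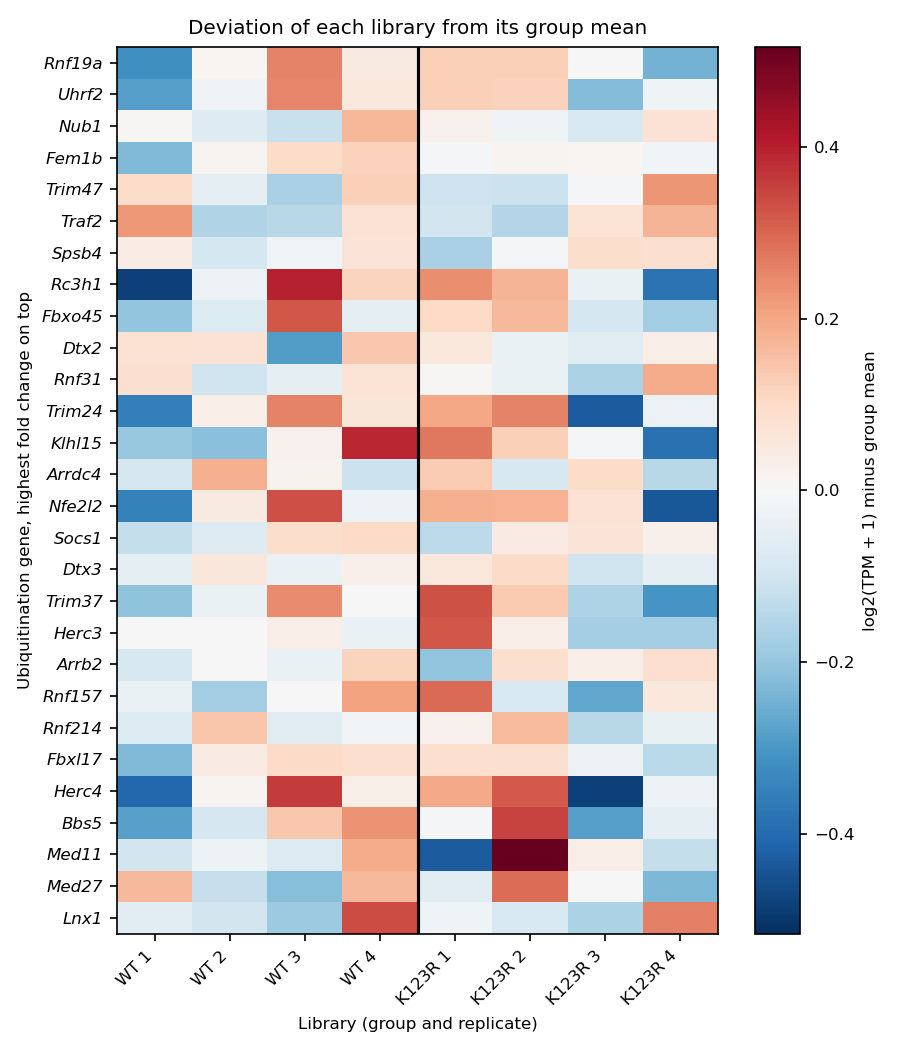
Deviation of each library from its own group's mean, in log2(TPM + 1), for the 28 tested ubiquitination genes ordered by fold change. SOD1-WT replicate 1 is mostly blue (lower), with Rc3h1, Herc4 and Nfe2l2 among the darkest, and SOD1-K123R replicates 3 and 4 hold most of the low values of their group.

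Other GO terms were counted as well. For the nucleus or nucleoplasm they were carried by 9 of 17 genes that rose (52.9%) and 4 of 11 that fell (36.4%). The share was 27.2% of all genes tested. For the cytosol the counts were 8 of 17 and 5 of 11 (14.9% of all genes tested). Zinc ion binding, the property of RING fingers, was annotated for 6 of 17 and 2 of 11 (4.57% of all genes tested). Members carry GO terms by the rule that chose them, so higher shares than among all genes tested are no result about them. KEGG lists Socs1, Herc3 and Herc4 under ubiquitin mediated proteolysis.

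Other parts of the ubiquitin system were read from fixed lists, without the 37 genes. Of 16 tested deubiquitinating enzymes, with a median log2 fold change of 0.68, 11 rose and 5 fell (44.6% and 51.1% of all genes tested). By the smallest adjusted p these were Otud1 (3.08 ± 0.285 to 8.30 ± 0.264 TPM), Usp22, a subunit of the SAGA coactivator (39.2 ± 2.49 to 68.1 ± 3.80 TPM), Zranb1, which edits atypical chains (6.62 ± 1.08 to 16.6 ± 1.74 TPM), and Usp3, which acts on histones (19.1 ± 0.308 to 33.8 ± 2.32 TPM). All 4 rose and their groups did not overlap (91.4% of all genes tested had groups apart). The 5 that fell were Brcc3 (-1.59, SE 0.18), Otud6b (-1.33, SE 0.15), Usp40, Usp13 and Usp46, and the falls of Brcc3 and Otud6b were larger than any rise of the list. Eif3f and Eif3h, translation factor subunits counted in this list for their related domain, rose by 0.60 and 0.65.

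Few proteasome genes were in the table, and of the 3 tested 1 rose and 2 fell (44.6% and 51.1% of all genes tested). Psmb8, the catalytic subunit that replaces its standard counterpart in the immunoproteasome, rose from 22.3 ± 4.09 to 92.5 ± 6.75 TPM (log2 fold change 2.02, SE 0.12). Psme3, the nuclear activator PA28 gamma, fell from 77.2 ± 2.10 to 20.5 ± 0.579 TPM (-1.86, SE 0.08), and Psmg1, an assembly chaperone, fell from 67.2 ± 3.78 to 22.5 ± 1.82 TPM (-1.54, SE 0.09). Psmc3ip, a meiotic recombination factor that the list took up by its symbol, was left out of this count after its values were seen, and fell (-1.38, SE 0.12). Ddi2, a protease that activates the NRF1 factor of proteasome genes, rose (0.78, SE 0.11). Derl3, of the export channel of the endoplasmic reticulum, did not pass (0.03, adjusted p = 0.788), but passed after median-of-ratios scaling (0.48, limma adjusted p = 0.00767).

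Of 7 tested genes for other ubiquitin-like modifiers 5 fell and 2 rose (51.1% and 44.6% of all genes tested). Dcun1d2, which helps attach NEDD8 to cullins, fell from 9.86 ± 0.632 to 1.93 ± 0.353 TPM, the SUMO protease Senp3 from 48.9 ± 5.76 to 14.2 ± 1.58 TPM and Zmiz2, a PIAS-like coactivator, from 12.8 ± 1.26 to 4.69 ± 0.997 TPM. The SUMO ligase Pias4 rose from 16.8 ± 1.48 to 33.0 ± 3.62 TPM. Of 5 tested adaptors and arrestin-like genes 3 rose and 2 fell (44.6% and 51.1% of all genes tested). Txnip, an arrestin-like protein that binds thioredoxin and limits glucose uptake, read 11.0, 9.35, 12.6 and 8.59 TPM in SOD1-WT and 119.9, 85.7, 118.2 and 79.9 TPM in SOD1-K123R. Its log2 fold change of 3.15 (SE 0.15) was larger than that of any of the 28 ubiquitination genes. Arrdc2 (2.16, SE 0.14) and Smad6 (1.34, SE 0.12) rose, and Pmepa1, a membrane adaptor that restrains TGF-beta signalling, fell from 219.9 ± 15.9 to 56.0 ± 5.16 TPM.

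**Figure D5:**
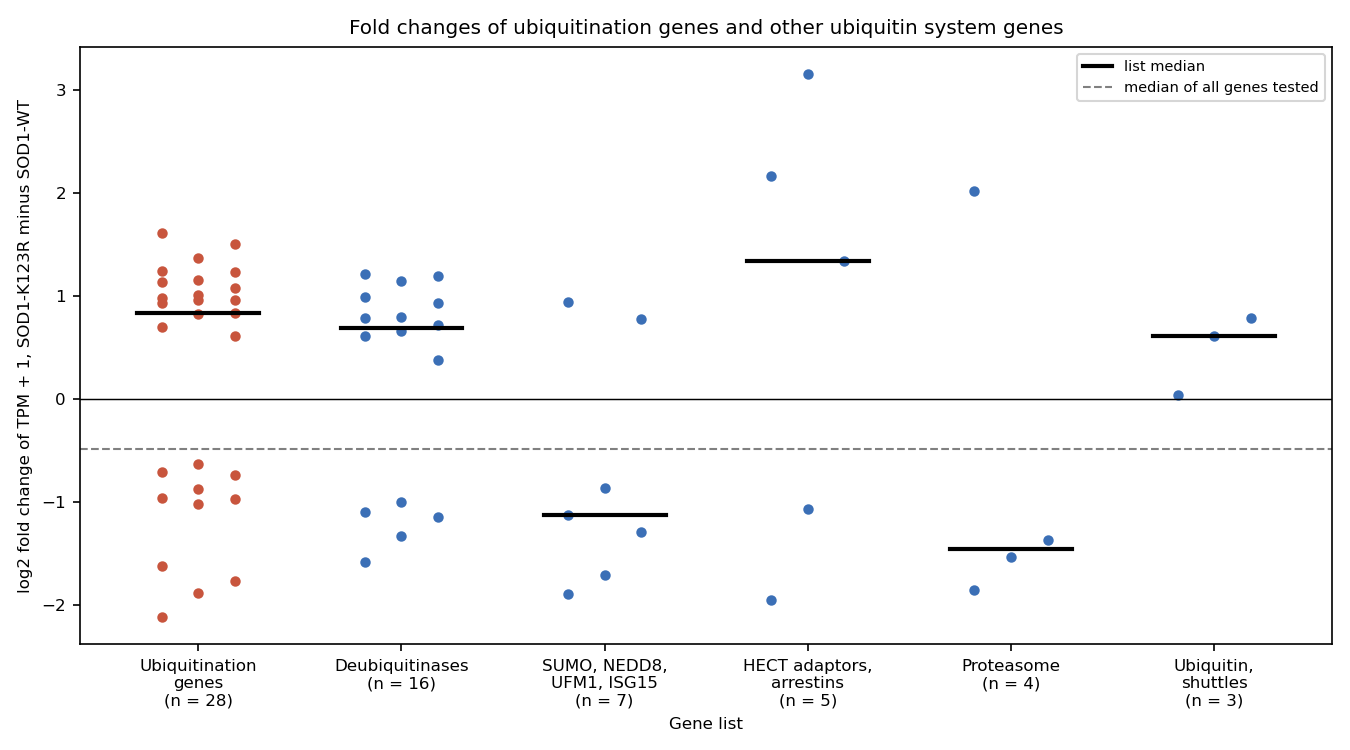
Log2 fold changes of TPM + 1, SOD1-K123R minus SOD1-WT, for tested ubiquitination genes (n = 28) and for tested genes of 5 other lists of the ubiquitin system, with black bars at list medians and a dashed line at the median of all genes tested (-0.49). Deubiquitinating enzymes have a positive median (0.68), modifier genes (-1.13) and the proteasome list (-1.46 with Psmc3ip, -1.54 without it) a negative median.

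The 16 genes that carry a ubiquitin term but were left out for another term included 14 tested. Of these 8 rose and 6 fell (44.6% and 51.1% of all genes tested).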

How the data were processed

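RNA-seq of 8 libraries was analysed. Per the labels, RNA was isolated with TRIzol and sequenced as paired ends on an Illumina NovaSeq. The authors deposited 1 gene-level table of TPM with GO and KEGG annotation, and named it as RSEM output, per the file headers. The authors also name DESeq2, per the submitters' processing notes, without a role. Neither aligner nor genome build is given in the sources used here. Read depth cannot be had from TPM, and no counting interval was set. Groups and replicate numbers were taken from the sample titles.

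From these values log2(TPM + 1) was computed and genes whose mean reached 1 TPM were fitted with limma 3.58.1 (lmFit, then trended eBayes) in R 4.3.3, as SOD1-K123R minus SOD1-WT. Tests were two-sided, with Benjamini-Hochberg adjustment over 2890 genes and a threshold of 0.05. How the rows of the deposited table were chosen is not stated. If they were chosen by this same comparison, the adjustment does not count the genes left out, and the adjusted p-values may be too small. The fit was tried on simulated data in which most genes did not differ. In the data here 95.7% of all genes tested passed, so the trial does not cover this setting. Terms were matched by exact name for inclusion and by part of the name for exclusion. Alternatives were a pseudocount of 0.1, no filter, a mean of at least 5 TPM, median-of-ratios and quantile scaling, a replicate block, no trend, each library left out and other rules for members. Members and lists were chosen with earlier results of these data known. Named by rule were the 10 largest changes in each direction (groups apart, at least 5 TPM in the higher group), the 3 smallest adjusted p per role, the 5 most abundant, up to 8 that did not pass and 4 genes per other list. The remaining members, and other list genes, were named after their values were seen. Median-of-ratios scaling shifted the median log2 fold change of all genes by 0.35 and quantile normalization by 0.24. Promoter letters came from RefSeq (GRCr8), which is not stated to be the build behind the TPM.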

Additional observations from a re-analysis of the deposited data

How the results depend on the processing

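Of 28 tested ubiquitination genes, 27 kept their direction and their call under every alternative in which they were tested, and the call of Trim37 ended after median-of-ratios scaling. The counts of 17 that rose and 11 that fell stayed within 1.5 times under each processing alternative. With other rules for members, 8 rose and 6 fell among genes with the transferase term alone, and 17 fell and 25 rose among genes with either term and no exclusions. The median log2 fold change of 0.83 moved to 1.03 with a pseudocount of 0.1, to 1.15 after median-of-ratios scaling and to 0.98 after quantile normalization, and ran from 0.76 to 0.89 with 1 library left out. Matching any term that contains either phrase, an alternative chosen after seeing the data, gave 21 that rose and 16 that fell. With no filter, 21 of 37 passed as higher and 15 as lower (89.4% of all genes passed), and Rnf144b did not pass. Same-numbered libraries of the groups correlated in their deviations from the group means by -0.35 to 0.05, and 1 of 4 SOD1-WT libraries correlated best with its own number, so the numbers were not taken as pairs. With a replicate block 17 members rose and 11 fell, and 2743 of all genes passed against 2765 without it. Depth is unknown, which limits genes near 1 TPM most: the members nearest to the filter were Socs1 (mean 1.41 TPM) inside and Dtx4 (0.781 TPM) outside.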
